A study of Arabidopsis thaliana with 9 samples.

Results

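The genes described here are the nuclear genes of Arabidopsis thaliana whose deposited annotation names a photosystem, a chlorophyll a/b protein or light harvesting. They were picked by a rule on the annotation text that uses no expression value, chosen with earlier results of these data known. They numbered 60 of the 26973 genes in the deposited table. By role they were 14 genes of LHCII and the minor antenna, 5 of the LHCI antenna, 12 annotated as photosystem II subunits, 13 as photosystem I subunits, 14 of assembly, repair and PsbP-like or PsbQ-like proteins, 1 thylakoid shape protein (PSI-P), and 1 gene (AT1G69680) that entered through the name of the Mog1/PsbP protein fold and is related to a Ran release factor. The choice by annotation text did not take in LHCA1, LHCB7, PSBO1 and PSBS, which belong to the same complexes.

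Expression was measured by RNA-seq in whole seedlings in 3 groups of 3 libraries: the line OXmiR400, labelled as overexpressing the microRNA miR400, the line OXrPPR1, labelled as overexpressing rPPR1, and wild type, all named Colombia in the library titles. All 3 groups had been given 100 µM cadmium for 6 h. No seedlings without cadmium were analysed here, so every comparison is between genotypes after exposure. The labels name no promoter driving the overexpressed genes and no number of plants per library, and do not say how many independent lines a line name covers.

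Light is absorbed in the thylakoid membranes of the chloroplast by antenna proteins that bind chlorophyll. The trimeric LHCII complex, made of LHCB1, LHCB2 and LHCB3, and the minor antenna proteins LHCB4, LHCB5 and LHCB6 pass the energy mainly to photosystem II, which takes electrons from water. The LHCA proteins serve photosystem I, which hands the electrons to ferredoxin. The reaction centre cores are encoded in the plastid genome, whereas the antenna and most peripheral subunits are nuclear genes whose products are imported, so that the complexes draw on both genomes.

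Values are FPKM, in which reads or fragments are scaled to exon length and to library size, so that levels of different genes can be compared. Library depth was estimated from the spacing of the lowest values, taken as steps of 0.25 of a read or fragment. The smallest depth that fitted in the range searched was used, and multiples of it would fit too. So estimated, depth was 15600000 to 17100000 reads or fragments in OXmiR400, 19300000 to 21100000 in OXrPPR1 and 12700000 to 17100000 in wild type. The locus MIR400 was listed at 953, 684 and 629 FPKM in OXmiR400 and at 0 to 0.572 FPKM in wild type, and PPR1 (AT1G06580) at 25.5, 24.7 and 21.9 FPKM in OXrPPR1 and at 2.40, 2.17 and 2.54 FPKM in wild type. On the first principal component of all tested genes, OXrPPR1 replicate 3 lay at 16.8, on the side of the wild type libraries (11 to 36.2), while OXrPPR1 replicates 1 and 2 lay at -9.9 and -18.1. Counts over the genes that this library moves are given below with and without it. Whether the 3 libraries of a genotype are separate cultures is not stated, and the p-values then reflect a spread that could be technical.

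Antenna and photosystem transcripts were among the most abundant of the table. Of the 60 genes, 23 averaged at least 1000 FPKM over the 9 libraries, 19 averaged 100 to 1000 FPKM, 13 averaged 10 to 100 FPKM and 5 lay under 10 FPKM. LHCB1.3, one of 5 LHCB1 copies, was the highest, at 15910, 19700 and 17660 FPKM in OXmiR400, 16710, 13540 and 13570 FPKM in OXrPPR1, and 10170, 12810 and 13730 FPKM in wild type. All 3 OXmiR400 libraries lay above all 3 wild type libraries for this gene, and the OXrPPR1 libraries overlapped the wild type range. It alone held 17.9% to 23.9% of the summed FPKM of the 60 genes in each library. At the low end AT4G37230, a PsbO-family gene, lay between 0 and 0.594 FPKM and did not reach the mean of 1 FPKM in any genotype that was required for testing. The other 59 genes passed that filter in every genotype.

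The 60 genes together took 8.04%, 9.53% and 9.37% of the reads or fragments in the OXmiR400 libraries, 8.61%, 8.07% and 6.9% in OXrPPR1, and 6.42%, 7.05% and 7.82% in wild type. Each OXmiR400 library was above each wild type library, and OXrPPR1 replicate 3 lay inside the wild type range. The genes of LHCII and the minor antenna accounted for most of this, at 5%, 5.77% and 5.95% in OXmiR400, 5.3%, 4.7% and 4.15% in OXrPPR1, and 3.53%, 4.16% and 4.65% in wild type. In whole seedlings, fewer green cells and less RNA per green cell cannot be told apart in such shares.

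The first comparison asks whether these genes differed between OXmiR400 and wild type after cadmium. None of the 59 tested genes was called at an adjusted p under 0.05 in limma, with Benjamini-Hochberg adjustment over all 19955 genes tested, where 0.571% of all tested genes were called. At an unadjusted p under 0.05, 15 of the 59 were higher in OXmiR400, against 6.71% of all genes, and 0 were lower, against 9.19% of all genes. The fold change was above 0 in 53 of 59, against 46.9% of all genes, and its median was 0.20 on the log2(FPKM + 1) scale, against -0.02 over all genes. In 21 genes the 3 OXmiR400 libraries all exceeded the 3 wild type libraries, against 10.8% of all genes, and in 0 they all lay below, against 13.5%. These counts describe the list and were not tested as a list.

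Against the same wild type libraries, OXrPPR1 also had 0 of 59 genes called in limma, where 0.0651% of all genes were called. At an unadjusted p under 0.05, 3 were higher (4.81% of all genes) and 1 was lower (5.7%). The fold change was above 0 in 44 of 59 (46% of all genes) with a median of 0.12 on the log2 scale (-0.02 over all genes). Groups did not overlap in 8 genes that were higher, against 6.36% of all genes, and in 1 that was lower, against 8.33%. Without OXrPPR1 replicate 3 the median was 0.21, with 49 of 59 above 0 and 6 higher at an unadjusted p under 0.05, and without OXrPPR1 replicate 2 it was 0.04, with 37 above 0 and 1 higher. The number higher at that level was also 1 without OXmiR400 replicate 2, without wild type replicate 3 and with only the 6 libraries compared, and the number lower was 2 without OXrPPR1 replicate 1. With LHCB1 and LHCB2 copies summed, 3 of 53 were higher and 0 lower. Because both lines were set against the same 3 wild type libraries, their fold changes are not independent of each other.

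Between the lines, OXmiR400 against OXrPPR1, 0 of 59 genes were called in limma (0.0651% of all genes). At an unadjusted p under 0.05, 4 genes were higher in OXmiR400 (3.34% of all genes) and 0 lower (4.06%), and all 4 were LHCB1 or LHCB2 genes. The median was 0.12 on the log2 scale against 0.00 over all genes, with 50 of 59 above 0 (50.4% of all genes). It was 0.06 without OXrPPR1 replicate 3, when 38 of 59 lay above 0. The 4 genes at that level became 2 without OXrPPR1 replicate 3 and without OXmiR400 replicate 2 or 3, 7 without OXmiR400 replicate 1 and 8 without OXrPPR1 replicate 2. With the LHCB1 and LHCB2 copies summed into 1 value each, because single copies are uncertain, 1 of 53 was higher and 0 lower. The groups did not overlap in 3 genes that were higher in OXmiR400, against 5.9% of all genes, and in 0 that were lower, against 7.28%.

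**Figure D1:**
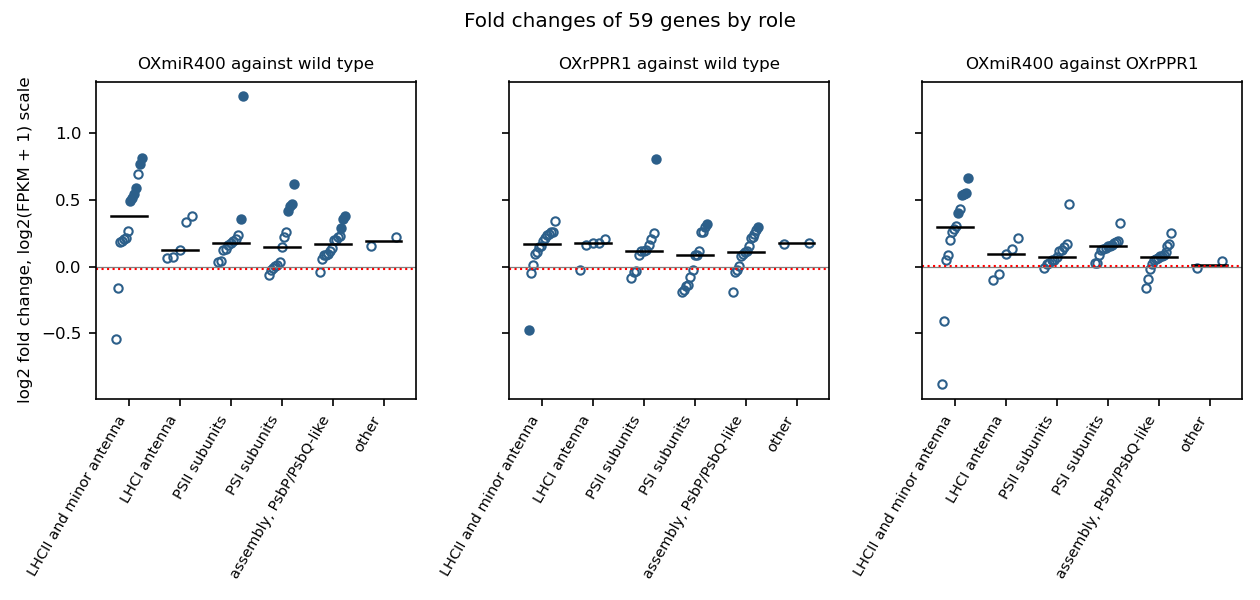
Log2 fold change on the log2(FPKM + 1) scale (vertical axis) of the 59 tested genes, grouped by role, in the comparisons OXmiR400 against wild type, OXrPPR1 against wild type and OXmiR400 against OXrPPR1. Each point is a gene, filled where the unadjusted p is under 0.05 in limma, black bars are medians of a role and the red dotted line is the median of all 19955 genes. The genes of LHCII and the minor antenna have the highest median in the first panel, 0.38, and also its lowest point, LHCB1.5 at -0.54. In the same panel 1 photosystem II gene, PSBP2, stands apart from its class at 1.28.

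The roles did not contribute evenly to the comparison of OXmiR400 with wild type, where 6.71% of all genes were higher at an unadjusted p under 0.05. Of the 15 genes higher at an unadjusted p under 0.05, 6 were of LHCII and the minor antenna (14 tested, median log2 fold change 0.38), 0 of the LHCI antenna (5 tested, median 0.12), 2 of photosystem II (11 tested, median 0.17), 4 of photosystem I (13 tested, median 0.14) and 3 of assembly, repair and PsbP-like or PsbQ-like proteins (14 tested, median 0.17). In OXrPPR1 the corresponding medians were 0.17, 0.18, 0.12, 0.08 and 0.11. No difference between roles was tested.

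**Figure D2:**
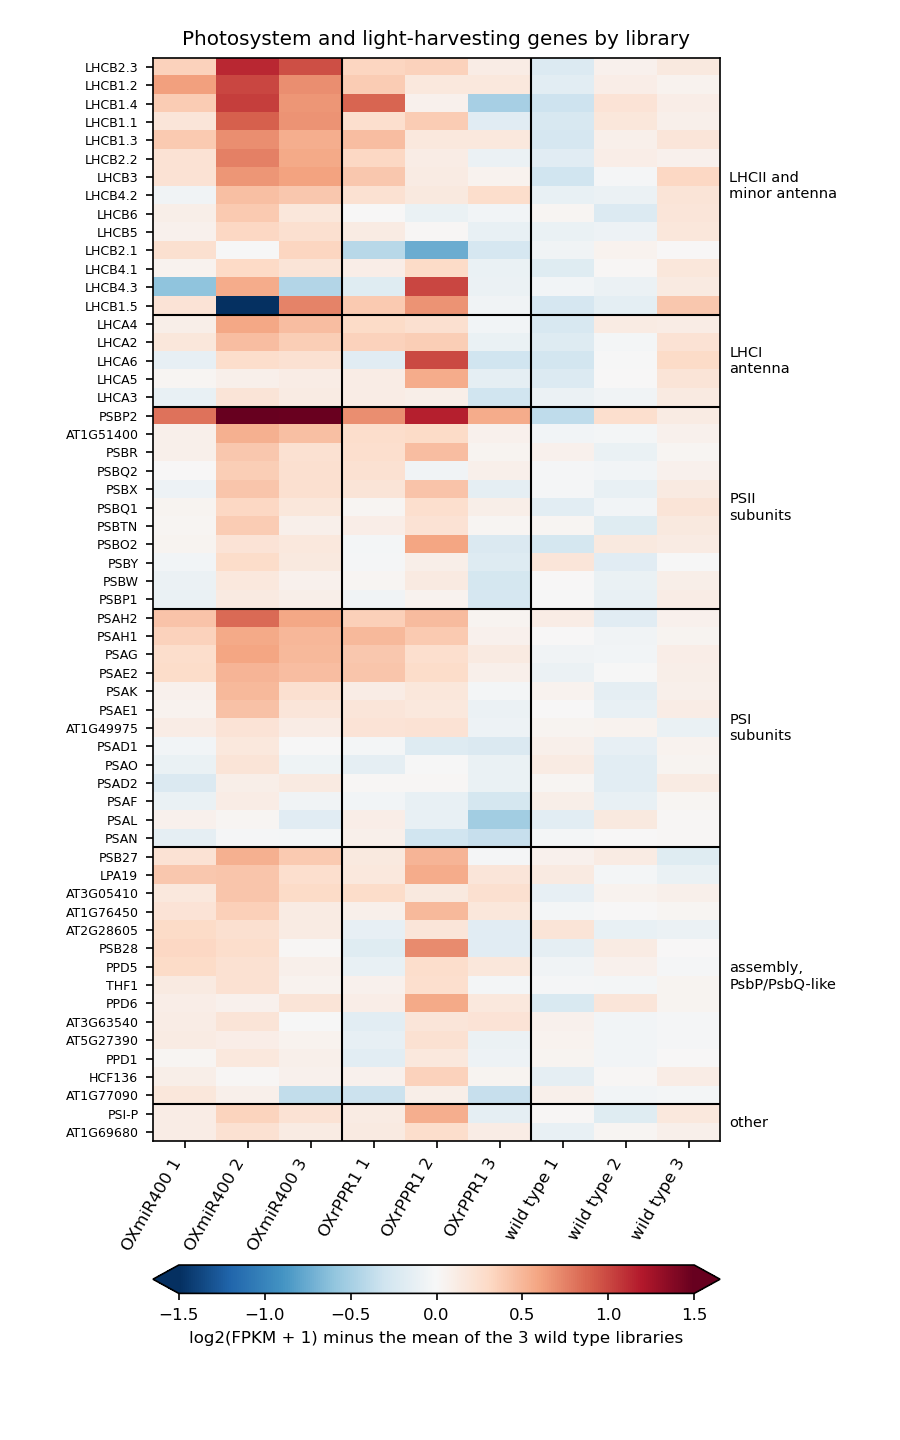
Level of each of the 59 tested genes (rows, grouped by role and ordered by fold change in OXmiR400) in each library (columns), as log2(FPKM + 1) minus the mean of the 3 wild type libraries. Red is above and blue below that mean, and the colours end at 1.5 in each direction, which LHCB1.5 in OXmiR400 replicate 2 and PSBP2 exceed. OXmiR400 replicate 2 is the reddest column and OXrPPR1 replicate 3 is close to wild type for most rows.

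Libraries of a genotype did not stand level across the genes. Within OXmiR400, replicate 2 was the highest of the 3 for 47 of the 59 genes and replicate 1 the lowest for 45. Within OXrPPR1, replicate 3 was the lowest for 42, and within wild type replicate 3 was the highest for 33. Over the 3 libraries of a genotype the median coefficient of variation of the 59 genes was 10.7% in OXmiR400, 13.3% in OXrPPR1 and 9.29% in wild type. Without OXmiR400 replicate 2, the number of genes higher in OXmiR400 at an unadjusted p under 0.05 was 7 and the median 0.14, and without OXmiR400 replicate 1 these were 18 and 0.24.

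Over the 9 libraries the genes moved together to a varying degree. The correlation of a gene with the mean of the other tested genes was taken across 9 libraries that differ in genotype and depth. It had a median r of 0.708, was at least 0.8 in 23 genes and under 0.4 in 10. LHCA2, an antenna protein of photosystem I, followed the mean most closely (r = 0.951), then LHCB4.1 (0.929), LHCB1.1 (0.924) and AT1G51400 (0.922). LHCB1.5 (-0.365), LHCB2.1 (-0.092), PSAN (0.057) and AT1G77090 (0.073) had the lowest values. These r values describe the 9 libraries and carry no test.

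The 250 bases upstream of the annotated start are shown for 5 genes, of which LHCB1.2, LHCB2.3, PSBP2 and PSAH2 had the smallest p in OXmiR400 against wild type and LHCB2.1 was the 1 gene lower in OXrPPR1 than in wild type at an unadjusted p under 0.05. Coordinates and sequence are of TAIR10.1 (RefSeq), 5′ to 3′ on the strand of the gene. LHCB1.2 is given at chr1:10473503-10473752 on the minus strand, LHCB2.3 at chr3:10255656-10255905 on the plus strand, LHCB2.1 at chr2:1824481-1824730 on the minus strand, PSBP2 at chr2:13120200-13120449 on the minus strand and PSAH2 at chr1:19454548-19454797 on the plus strand. Capitals mark the letters CACGTG (the G-box, bound by light-signalling factors), GATAAG or its reverse complement CTTATC (the I-box), and CCAATC or GATTGG. The window of PSBP2 overlaps the annotated gene AT2G30800 and that of PSAH2 overlaps AT1G52220.
LHCB1.2: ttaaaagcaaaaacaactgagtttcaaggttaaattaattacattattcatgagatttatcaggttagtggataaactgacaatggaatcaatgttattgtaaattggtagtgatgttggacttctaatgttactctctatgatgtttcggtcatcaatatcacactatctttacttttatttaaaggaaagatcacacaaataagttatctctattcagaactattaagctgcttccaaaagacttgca
LHCB2.3: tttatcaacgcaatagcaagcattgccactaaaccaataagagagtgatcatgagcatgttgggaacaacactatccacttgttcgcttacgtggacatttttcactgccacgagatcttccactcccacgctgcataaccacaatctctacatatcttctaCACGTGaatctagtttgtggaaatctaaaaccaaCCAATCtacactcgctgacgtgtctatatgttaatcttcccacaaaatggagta
LHCB2.1: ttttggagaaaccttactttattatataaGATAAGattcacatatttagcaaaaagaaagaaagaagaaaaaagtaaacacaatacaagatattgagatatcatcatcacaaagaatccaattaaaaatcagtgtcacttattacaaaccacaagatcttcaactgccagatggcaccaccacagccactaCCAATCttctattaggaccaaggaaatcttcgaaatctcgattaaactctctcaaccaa
PSBP2: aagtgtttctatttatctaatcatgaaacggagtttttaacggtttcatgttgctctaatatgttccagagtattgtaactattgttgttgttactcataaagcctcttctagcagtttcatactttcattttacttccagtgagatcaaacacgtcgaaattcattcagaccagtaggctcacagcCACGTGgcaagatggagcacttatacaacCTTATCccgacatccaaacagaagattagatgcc
PSAH2: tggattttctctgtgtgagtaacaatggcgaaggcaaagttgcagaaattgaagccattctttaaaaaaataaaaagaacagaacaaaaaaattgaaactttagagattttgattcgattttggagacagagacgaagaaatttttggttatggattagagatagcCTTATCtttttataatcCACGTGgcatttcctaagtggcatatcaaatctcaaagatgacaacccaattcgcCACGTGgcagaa

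CACGTG occurred in PSAH2, LHCB2.3 and PSBP2, while the window of LHCB1.2 held none of these letters. Searched on both strands, CACGTG was found in 13 of 59 upstream windows of these genes (22%), against 6.96% of 24199 windows of the same length upstream of all coding genes. GATAAG was found in 12 (20.3%), against 12.4%, and CCAATC in 12 (20.3%), against 10.4%. CCAATC was most frequent in LHCII and the minor antenna, with 7 of 14 windows (50%), and was in 0 of 13 windows of photosystem I subunits. The evening element AAAATATCT, known from clock-controlled genes, was in 1 of 59 (1.69%), against 2.46%. Among the 21 genes whose OXmiR400 libraries all exceeded the wild type libraries, CACGTG was in 5 of 21 windows, and among the other genes in 8 of 38. AT3G63540 had no window in this set. A match is a description of letters, and no match says only that these letters are not in this window.

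LHCB1 and LHCB2 encode the main proteins of the LHCII trimer. LHCB1.2 (AT1G29910, chromosome 1, 10472280 to 10473502, minus strand) measured 3747, 4922 and 3979 FPKM in OXmiR400, 3187, 2749 and 2744 FPKM in OXrPPR1 and 2207, 2637 and 2538 FPKM in wild type. All 3 OXmiR400 libraries were above the other 6, and the OXrPPR1 libraries were above those of wild type without overlap. Its log2 fold change in OXmiR400 against wild type was 0.77 ± 0.15 (SE), with an adjusted p of 0.0609 in limma that did not pass. Between the lines it was 0.54 ± 0.15 (SE, adjusted p = 0.457 in limma).

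LHCB2.3 (AT3G27690), the weakest of 3 LHCB2 copies, had the largest fold change of the antenna genes. It measured 195, 337 and 301 FPKM in OXmiR400, 193, 196 and 167 FPKM in OXrPPR1 and 133, 161 and 170 FPKM in wild type. OXmiR400 replicate 1 was close to OXrPPR1 replicates 1 and 2, and all OXmiR400 libraries were above wild type. The log2 fold change in OXmiR400 against wild type was 0.81 ± 0.19 (SE, adjusted p = 0.0929 in limma). LHCB2.2 (AT2G05070) averaged 1325 ± 246 FPKM in OXmiR400, 995 ± 137 in OXrPPR1 and 920 ± 91.6 in wild type (SD, n = 3 each), with a log2 fold change of 0.51 ± 0.17 in OXmiR400 (SE, adjusted p = 0.192 in limma).

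LHCB2.1 (AT2G05100) went against its copies in OXrPPR1. It measured 1039, 876 and 1102 FPKM in OXmiR400, 658, 524 and 735 FPKM in OXrPPR1 and 846, 910 and 879 FPKM in wild type. The OXrPPR1 libraries were below those of both other groups, and OXmiR400 replicate 2 lay inside the wild type range. The log2 fold change in OXrPPR1 against wild type was -0.47 ± 0.15 (SE, adjusted p = 0.326 in limma), and in OXmiR400 against OXrPPR1 it was 0.66 ± 0.15 (SE, adjusted p = 0.331 in limma). Its share of the summed FPKM of the 3 LHCB2 copies was 45.2%, 31.7% and 39.8% in OXmiR400, 33.1%, 30.6% and 41.7% in OXrPPR1 and 47.1%, 44.3% and 43.8% in wild type.

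The other LHCB1 copies differed among themselves. LHCB1.3 averaged 17760 ± 1894 FPKM in OXmiR400, 14610 ± 1820 in OXrPPR1 and 12240 ± 1849 in wild type (SD, n = 3 each), with a log2 fold change of 0.54 ± 0.18 in OXmiR400 (SE, adjusted p = 0.184 in limma). LHCB1.1 averaged 2128 ± 508, 1563 ± 296 and 1399 ± 204 FPKM in OXmiR400, OXrPPR1 and wild type (SD, n = 3 each), with 0.59 ± 0.22 in OXmiR400 against wild type (SE, adjusted p = 0.228 in limma). LHCB1.4 measured 2609, 4100 and 3151 FPKM in OXmiR400, 3660, 2090 and 1419 in OXrPPR1 and 1612, 2307 and 2141 in wild type, with the OXrPPR1 libraries spread on both sides of wild type.

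LHCB1.5 (AT2G34420, chromosome 2, 14522524 to 14523568) had 1 library far from the rest. It measured 5850, 847 and 8454 FPKM in OXmiR400, 6652, 8070 and 4874 in OXrPPR1 and 4235, 4555 and 6693 in wild type. OXmiR400 replicate 2, the library with the highest LHCB1.1, LHCB1.2, LHCB1.3 and LHCB1.4, was below all others, and the remaining 8 libraries overlapped. LHCB1.5 held 2.63% of the summed FPKM of the LHCB1 copies in that library and 19.1% to 28.6% in the other 8. Its log2 fold change in OXmiR400 against wild type was -0.54 ± 0.76 (SE), and 0.48 without that library, called in neither case (adjusted p = 0.774 and 0.589 in limma).

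The copies are close enough for reads to be shared, and no source used here says how such reads were assigned. The coding sequences of LHCB1.1, LHCB1.2 and LHCB1.3 were 95.6% to 96.4% identical in pairs, with identical runs of up to 119 bases, and LHCB1.5 and LHCB1.4, which lie next to each other, were 91.8% identical with a run of 122 bases. LHCB2.2 and LHCB2.1, with coding sequences of 798 and 954 bases, shared 741 identical bases, 77.7% of the longer, with a run of 137 bases. Values of single copies are therefore uncertain. Summed over the 5 LHCB1 copies, a setting chosen after the values were seen, the level was 29200, 32580 and 34680 FPKM in OXmiR400, 31330, 27400 and 23370 in OXrPPR1 and 19020, 23540 and 25900 in wild type. The OXmiR400 libraries were again above wild type, replicate 2 included, and their summed log2 fold change of 0.50 had an SE of 0.18 and an adjusted p of 0.22 in limma. The 3 LHCB2 copies together averaged 2492 ± 243 FPKM in OXmiR400, 1724 ± 134 in OXrPPR1 and 1879 ± 129 in wild type (SD, n = 3 each), with log2 fold changes of 0.41 ± 0.13 in OXmiR400 and -0.13 ± 0.13 in OXrPPR1, each against wild type (SE, adjusted p = 0.182 and 0.779 in limma).

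**Figure D3:**
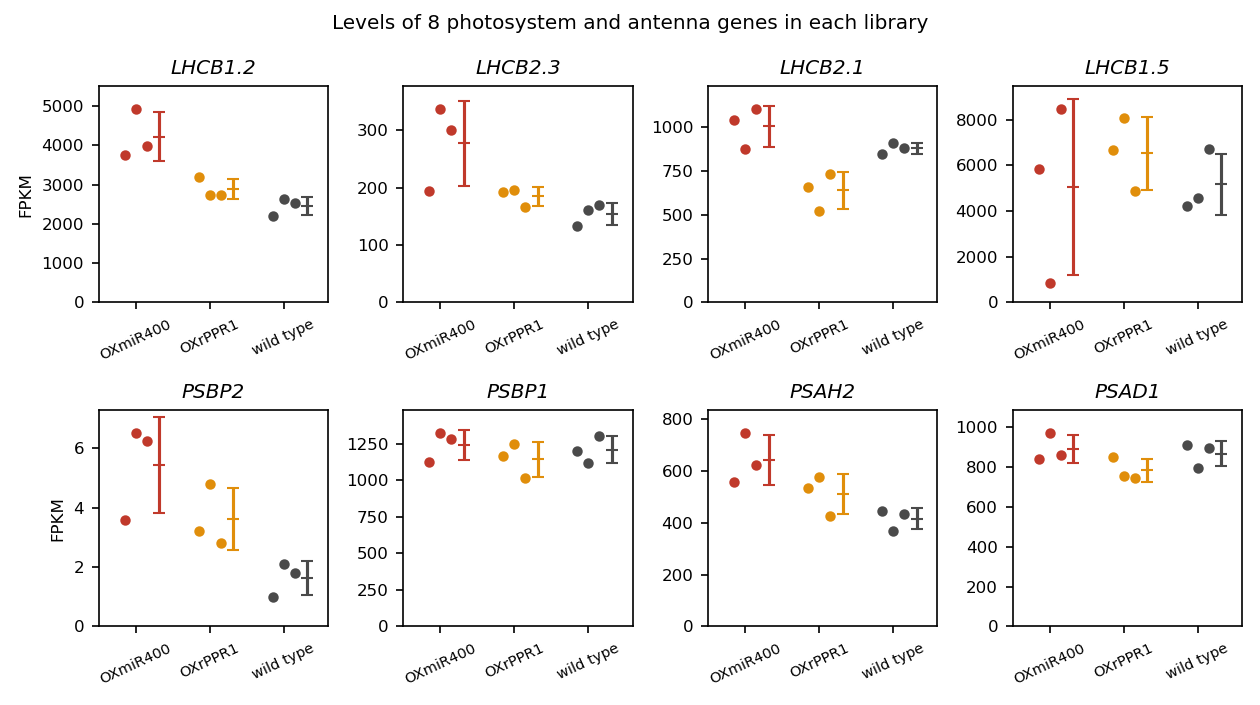
FPKM (vertical axis, from 0) of 8 genes in each library of OXmiR400, OXrPPR1 and wild type. Points are libraries, and the bar beside them is the mean ± SD of 3. The OXmiR400 points of LHCB1.2, LHCB2.3, PSBP2 and PSAH2 lie above the wild type points, those of PSBP1 and PSAD1 overlap them, and 1 OXmiR400 library of LHCB1.5 lies at 847.

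LHCB3, the third kind of LHCII protein, measured 2447, 3332 and 3195 FPKM in OXmiR400, 2780, 2288 and 2178 in OXrPPR1 and 1711, 2088 and 2612 in wild type. Its highest wild type library was above its lowest OXmiR400 library, and the log2 fold change was 0.49 ± 0.19 (SE, adjusted p = 0.253 in limma). The minor antenna genes, which connect LHCII to the photosystem II core, had smaller fold changes in OXmiR400. LHCB5 averaged 2299 ± 203 FPKM in OXmiR400, 2003 ± 164 in OXrPPR1 and 1994 ± 208 in wild type, and LHCB6 1887 ± 212, 1568 ± 58.8 and 1629 ± 213 in the same order of groups (SD, n = 3 each). Among the 3 LHCB4 genes, LHCB4.1 and LHCB4.2 lay at 1010 to 1565 FPKM in all libraries, and LHCB4.3 at 1.02 to 5.15 FPKM, highest in OXmiR400 replicate 2 and OXrPPR1 replicate 2 of their groups.

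The LHCI antenna genes overlapped between genotypes in every case. LHCA4 measured 3077, 4333 and 4017 FPKM in OXmiR400, 3532, 3422 and 2826 in OXrPPR1 and 2465, 3164 and 3135 in wild type (log2 fold change 0.38 ± 0.18 SE in OXmiR400 against wild type, adjusted p = 0.341 in limma). LHCA2 averaged 1860 ± 189, 1710 ± 293 and 1479 ± 215 FPKM, and LHCA3 1450 ± 159, 1361 ± 206 and 1381 ± 120 FPKM, in OXmiR400, OXrPPR1 and wild type (SD, n = 3 each). LHCA5 and LHCA6, low-abundance proteins that link photosystem I to the NDH complex, lay at 41.9 to 71.3 and 15.9 to 40.1 FPKM over the 9 libraries, both highest in OXrPPR1 replicate 2.

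Among the photosystem II genes, PSBP2 (AT2G30790, chromosome 2, 13118937 to 13120199, minus strand) had the largest fold change of all 59 genes. PSBP2 is the minor of the PsbP genes, whose products help to hold the calcium and chloride of the oxygen-evolving complex. It measured 3.57, 6.51 and 6.24 FPKM in OXmiR400, 3.21, 4.8 and 2.81 in OXrPPR1 and 0.997, 2.09 and 1.82 in wild type. Both lines were above wild type without overlap. The log2 fold change was 1.28 ± 0.25 in OXmiR400 against wild type (SE, adjusted p = 0.06 in limma) and 0.81 ± 0.25 in OXrPPR1 against wild type (SE, adjusted p = 0.307 in limma). Over the alternatives tried, the adjusted p in OXmiR400 lay between 0.0364, with replicate number as a block, and 0.212.

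PSBP2 made up 0.317% to 0.49% of the FPKM of the PsbP pair in OXmiR400, 0.275% to 0.383% in OXrPPR1 and 0.083% to 0.187% in wild type, so its difference adds little PsbP transcript. PSBP1, the main gene, measured 1121, 1321 and 1278 FPKM in OXmiR400, 1164, 1247 and 1015 in OXrPPR1 and 1200, 1119 and 1303 in wild type, with overlapping groups. PSBO2, PSBQ2 and PSBQ1, for other extrinsic subunits of the oxygen-evolving complex, also had overlapping groups. PSBO2 averaged 320.0 ± 19.1, 326 ± 101.4 and 294 ± 45.2 FPKM, PSBQ2 891 ± 112, 818 ± 78.5 and 768 ± 28.9 FPKM, and PSBQ1 433 ± 40.5, 418 ± 33.7 and 385 ± 49.3 FPKM in OXmiR400, OXrPPR1 and wild type (SD, n = 3 each). PSBO1, which the annotation text did not pick, is given below.

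Of the small intrinsic or peripheral photosystem II proteins, PSBR was the most abundant. It measured 4188, 5257 and 4653 FPKM in OXmiR400, 4731, 5456 and 4083 in OXrPPR1 and 4142, 3702 and 4060 in wild type, and the OXmiR400 libraries lay just above the wild type ones. AT1G51400, annotated as a small photosystem II protein, measured 479, 655 and 623 FPKM in OXmiR400 and 441, 446 and 476 FPKM in wild type (log2 fold change 0.35 ± 0.14 SE, adjusted p = 0.258 in limma). PSBW averaged 1324 ± 115 FPKM in OXmiR400, 1264 ± 173 in OXrPPR1 and 1284 ± 80.5 in wild type (SD, n = 3 each). PSBX, PSBTN and PSBY overlapped between OXmiR400 and wild type, with adjusted p between 0.614 and 0.697 in limma.

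The photosystem I genes fell into a set with separated groups and a set without. PSAH2 and PSAH1 encode PsaH, where LHCII docks to photosystem I during state transitions. PSAH2 (AT1G52230) measured 560, 747 and 623 FPKM in OXmiR400, 533, 579 and 427 in OXrPPR1 and 447, 370 and 433 in wild type, and PSAH1 (AT3G16140) 391.9, 456 and 436 FPKM in OXmiR400, 434, 405 and 322 in OXrPPR1 and 309, 298 and 318 in wild type. OXmiR400 libraries were above wild type for both genes, and OXrPPR1 libraries for PSAH1 alone, by a small margin in replicate 3. The log2 fold changes in OXmiR400 against wild type were 0.62 ± 0.16 for PSAH2 and 0.47 ± 0.13 for PSAH1 (SE, adjusted p = 0.104 and 0.13 in limma). In OXrPPR1 PSAH1 had 0.32 ± 0.13 (SE, adjusted p = 0.442 in limma).

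PSAG, a membrane subunit at the edge of the complex, and PSAE2, one of a pair of genes for a stromal subunit at the ferredoxin side, showed the same arrangement. PSAG measured 1544, 1934 and 1800 FPKM in OXmiR400, 1698, 1520 and 1403 in OXrPPR1 and 1232, 1245 and 1371 in wild type, so both lines were above wild type (log2 fold change 0.45 ± 0.14 SE in OXmiR400 and 0.26 ± 0.14 SE in OXrPPR1, adjusted p = 0.153 and 0.545 in limma). PSAE2 measured 873, 1026 and 989 FPKM in OXmiR400, 961, 869 and 759 in OXrPPR1 and 678, 716 and 766 in wild type (0.42 ± 0.13 SE in OXmiR400, adjusted p = 0.167 in limma). Its partner PSAE1, at 1309, 1703 and 1431 FPKM in OXmiR400 and 1266, 1165 and 1356 FPKM in wild type, overlapped.

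The ferredoxin-docking subunit genes PSAD1 and PSAD2, the plastocyanin-side genes PSAF and PSAN, and PSAL and PSAO, which with PsaH form the LHCII docking region, had log2 fold changes between -0.06 and 0.04 in OXmiR400 against wild type. PSAD1 measured 841, 970 and 863 FPKM in OXmiR400, 851, 756 and 744 in OXrPPR1 and 913, 796 and 895 in wild type, with all groups overlapping. PSAN averaged 851 ± 40.2 FPKM in OXmiR400, 784 ± 130 in OXrPPR1 and 887 ± 15.9 in wild type, and PSAL 1379 ± 117, 1255 ± 266 and 1402 ± 150 in the same order (SD, n = 3 each). PSAO, the most abundant photosystem I gene by mean, averaged 1964 ± 223 FPKM in OXmiR400, 1841 ± 90.3 in OXrPPR1 and 1948 ± 194 in wild type (SD, n = 3 each). The standard errors of these fold changes, 0.12 to 0.17 on the log2 scale, leave small differences undetectable here.

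Assembly and repair genes had lower levels than most of the antenna and subunit genes above. In OXrPPR1 some spread widely, as PSB28 did at 30.0 ± 11.8 FPKM (SD, n = 3). PSB27, which binds photosystem II during its repair, measured 172, 214 and 194 FPKM in OXmiR400, 164, 210 and 146 in OXrPPR1 and 154, 161 and 130 in wild type (log2 fold change 0.38 ± 0.16 SE in OXmiR400, adjusted p = 0.266 in limma). LPA19, which assists the processing of the D1 reaction centre protein, measured 20.2, 20.3 and 18.1 FPKM in OXmiR400, 16.8, 22.5 and 17.2 in OXrPPR1 and 16.5, 14.6 and 13.95 in wild type. For LPA19 both lines were above wild type without overlap, with log2 fold changes of 0.36 ± 0.13 in OXmiR400 and 0.30 ± 0.13 in OXrPPR1 (SE, adjusted p = 0.21 and 0.449 in limma).

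THF1, needed for thylakoid formation, averaged 148 ± 8.88 FPKM in OXmiR400, 144 ± 14.4 in OXrPPR1 and 134 ± 3.49 in wild type, and HCF136, a photosystem II assembly factor, 61.0 ± 1.52, 65.6 ± 7.99 and 58.8 ± 5.28 in the same order (SD, n = 3 each). The PsbP-domain gene AT1G76450 measured 58.3, 64.8 and 55.3 FPKM in OXmiR400, 53.4, 71.2 and 57.2 in OXrPPR1 and 49.6, 50.7 and 51.5 in wild type, with both lines above wild type (adjusted p = 0.387 and 0.505 in limma). AT3G05410 averaged 14.6 ± 1.41, 13.9 ± 0.689 and 11.8 ± 0.963 FPKM in OXmiR400, OXrPPR1 and wild type (SD, n = 3 each, log2 fold change 0.29 ± 0.11 SE in OXmiR400, adjusted p = 0.228 in limma). AT1G77090, another of the PsbP-like genes, was the only one of the 14 below 0 in OXmiR400, at -0.04 ± 0.16 (SE), and its sign turned under some settings. PSI-P, a protein that bends thylakoid membranes, averaged 285 ± 22.8 FPKM in OXmiR400, 281 ± 67.6 in OXrPPR1 and 245 ± 29.2 in wild type (SD, n = 3 each).

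The 4 genes of the same complexes that the annotation text did not pick gave the following values. PSBO1, the main oxygen-evolving subunit gene, measured 1647, 1999 and 1806 FPKM in OXmiR400, 1723, 1812 and 1501 in OXrPPR1 and 1444, 1460 and 1646 in wild type, the OXmiR400 libraries barely above wild type. LHCA1, LHCB7 and PSBS, a sensor of lumen acidity for heat dissipation, had log2 fold changes of 0.17, -0.02 and 0.05 in OXmiR400 against wild type (adjusted p = 0.699, 0.975 and 0.927 in limma).

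The listed values of plastid-encoded photosystem genes, whose products form the cores that the nuclear subunits surround, lay the other way. How fully plastid transcripts were captured in each library was not tested, so these values may not follow plastid transcript levels. All 20 genes of the list matched a RefSeq plastid gene by position. In OXmiR400 against wild type 0 of 20 were called in limma (0.571% of all genes). At an unadjusted p under 0.05, 17 were lower (9.19% of all genes). Of the 20, 19 were below 0, with a median log2 fold change of -1.18. In OXrPPR1, 2 were called lower, psbF and psbL, where 0.0651% of all genes were called. At an unadjusted p under 0.05, 18 were lower (5.7% of all genes), and the median was -1.67. psbF, for a cytochrome b559 subunit, measured 40.4, 23.2 and 28.4 FPKM in OXmiR400, 18.8, 14.2 and 24.2 in OXrPPR1 and 63.3, 85.8 and 70.2 in wild type, with an adjusted p of 0.0536 in OXmiR400 and 0.03 in OXrPPR1 (limma). The calls of psbF and psbL were lost without any 1 wild type library, without OXmiR400 replicate 3 and without OXrPPR1 replicate 1 or 2 (adjusted p = 0.0827 to 0.14 for psbF and 0.0857 to 0.147 for psbL in limma).

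For the reaction centres, psaA measured 28.0, 11.7 and 21.7 FPKM in OXmiR400, 13.3, 21.1 and 18.2 in OXrPPR1 and 39.2, 53.7 and 57.2 in wild type, and psbA 595, 190 and 335 FPKM in OXmiR400, 240, 216 and 201 in OXrPPR1 and 509, 1090 and 907 in wild type. For psaA every library of both lines was below every wild type library, and for psbA OXmiR400 replicate 1 lay inside the wild type range. The log2 fold changes in OXmiR400 were -1.31 ± 0.29 for psaA and -1.24 ± 0.40 for psbA (SE, adjusted p = 0.0891 and 0.186 in limma). The mean of the 20 plastid-encoded genes on the log2 scale was 5.52, 4.35 and 4.97 in OXmiR400. It was 4.42, 4.12 and 4.62 in OXrPPR1 and 5.68, 6.20 and 5.97 in wild type. The part of the plastid-encoded levels in the nuclear values was not tested.

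**Figure D4:**
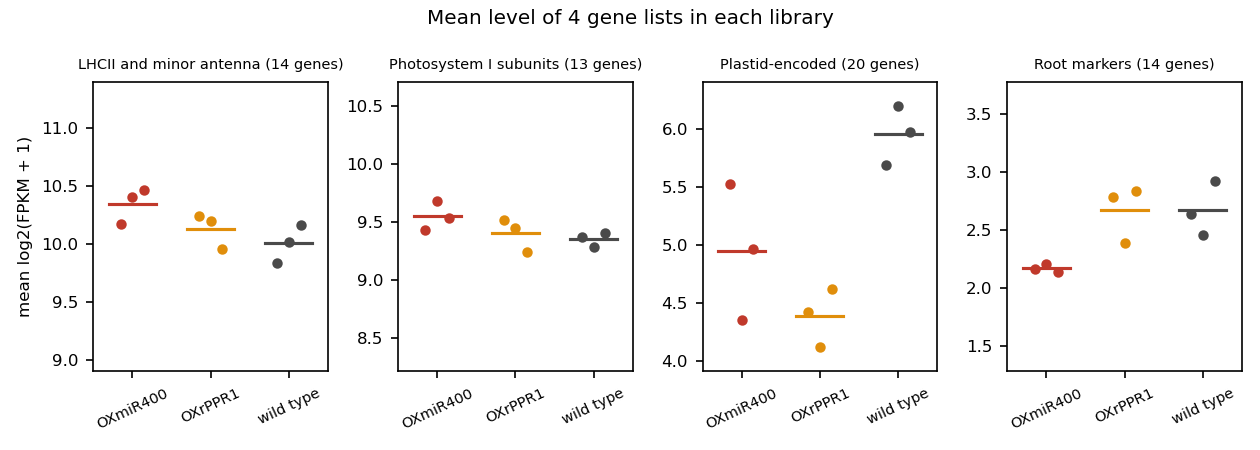
Mean log2(FPKM + 1) (vertical axis, each panel spanning the same length of scale) of the LHCII and minor antenna genes, the photosystem I subunits, the plastid-encoded photosystem genes and the root markers in each library of OXmiR400, OXrPPR1 and wild type. Points are libraries and bars are means of 3. The plastid-encoded mean is 4.35 to 5.52 in OXmiR400, 4.12 to 4.62 in OXrPPR1 and 5.68 to 6.20 in wild type, and the root marker mean is lowest in OXmiR400.

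Markers of root, the seedling organ with few photosynthesis transcripts, were read beside the antenna genes. Of 14 root markers 0 were called in OXmiR400 against wild type in limma (0.571% of all genes). At an unadjusted p under 0.05, 7 were lower (9.19% of all genes) and 0 higher (6.71%), and the median log2 fold change was -0.60. In OXrPPR1 against wild type 0 were called, and 1 was higher (4.81% of all genes) and 1 lower (5.7%) at that level. There 8 of 14 lay above 0 and the median was 0.06, where the LHCII and minor antenna median was 0.17. Their mean on the log2 scale was 2.17, 2.21 and 2.14 in OXmiR400, 2.79, 2.39 and 2.84 in OXrPPR1 and 2.64, 2.46 and 2.93 in wild type, and none of the 14 was at 0 in any library. Their summed level was 67.1 to 71.3 FPKM in OXmiR400, 77.4 to 123 in OXrPPR1 and 91.0 to 119 in wild type. CASP1, a Casparian strip gene, measured 15.5, 15.7 and 14.4 FPKM in OXmiR400, 36.0, 17.8 and 25.9 in OXrPPR1 and 25.8, 28.8 and 29.4 in wild type. The mean of the LHCII and minor antenna genes on the log2 scale was 10.175, 10.409 and 10.462 in OXmiR400. It was 10.241, 10.196 and 9.96 in OXrPPR1 and 9.841, 10.021 and 10.162 in wild type. The part of root content in the antenna differences was not tested.

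Of the regulators of photosynthesis genes, 1 of 16 was called in OXmiR400 against wild type, where 0.571% of all genes were called. GUN1, a plastid protein that relays plastid stress to nuclear photosynthesis genes, fell to 40.7, 31.4 and 36.0 FPKM in OXmiR400, against 68.3, 61.1 and 64.5 FPKM in wild type, without overlap, and measured 52.7, 54.2 and 61.3 FPKM in OXrPPR1. The log2 fold change was -0.83 ± 0.12 (SE, adjusted p = 0.0209 in limma). With GUN1, 2 of the 16 regulators were lower (9.19% of all genes) and 3 higher (6.71%) at an unadjusted p under 0.05. The call of GUN1 was lost without any 1 OXmiR400 library and without wild type replicate 1 or 3 (adjusted p = 0.054 to 0.112 in limma). In OXmiR400 against OXrPPR1 its log2 fold change was -0.63 ± 0.12 (SE, adjusted p = 0.201 in limma).

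GLK1 and GLK2 are transcription factors that switch on antenna and photosystem genes. GLK2 measured 74.8, 83.3 and 67.7 FPKM in OXmiR400, 93.3, 46.6 and 43.4 in OXrPPR1 and 59.96, 49.3 and 36.0 in wild type, and GLK1 48.3, 51.4 and 38.3 FPKM in OXmiR400, 39.9, 27.5 and 31.1 in OXrPPR1 and 49.7, 25.5 and 34.0 in wild type. The OXmiR400 libraries were above wild type for GLK2 and overlapped for GLK1, with log2 fold changes of 0.65 ± 0.28 and 0.37 ± 0.23 (SE, adjusted p = 0.304 and 0.475 in limma). PIF4 and PHYB had 0.33 ± 0.10 and 0.40 ± 0.16 (SE, adjusted p = 0.171 and 0.259 in limma).

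Clock genes were examined because antenna genes cycle through the day. None of 10 was called in OXmiR400 against wild type in limma (0.571% of all genes). At an unadjusted p under 0.05, 2 were higher (6.71% of all genes) and 4 lower (9.19%). CCA1, a morning factor first known as a protein that binds an LHCB1 promoter, measured 10.9, 11.5 and 9.94 FPKM in OXmiR400, 7.62, 6.60 and 6.70 in OXrPPR1 and 6.17, 7.14 and 4.66 in wild type, the OXmiR400 libraries being above the other 6 (log2 fold change 0.77 ± 0.15 SE, adjusted p = 0.0546 in limma). LHY, its relative, had 0.91 ± 0.27 (SE, adjusted p = 0.147 in limma). TOC1 and GI, which peak later in the day, had -0.53 ± 0.11 and -0.51 ± 0.12 in OXmiR400 (SE, adjusted p = 0.0716 and 0.0879 in limma), with libraries below wild type without overlap. In OXrPPR1 against wild type they had -0.39 ± 0.11 and -0.60 ± 0.12 (SE, adjusted p = 0.266 and 0.119 in limma), also without overlap. There 0 of the 10 clock genes were higher (4.81% of all genes) and 2 lower (5.7%) at an unadjusted p under 0.05. The time of day of each harvest is not given in the labels, and its part in the antenna values was not tested.

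Other steps of photosynthesis and antenna handling had no gene called in limma in OXmiR400 against wild type, where 0.571% of all genes were called. Of 18 Calvin cycle genes 2 were higher (6.71% of all genes) and 0 lower (9.19%) at an unadjusted p under 0.05. Of the same 18, 17 lay above 0 (46.9% of all genes), with a median log2 fold change of 0.21. Those with the smallest p were CP12-1, RBCS2B and RCA, at 0.37 ± 0.13, 0.58 ± 0.23 and 0.51 ± 0.23 (SE, adjusted p = 0.217, 0.261 and 0.317 in limma). The Calvin cycle genes were not higher in OXmiR400 alone. In OXrPPR1 against wild type 17 of the 18 also lay above 0 (46% of all genes), with a median of 0.24. There 4 were higher (4.81% of all genes) and 0 lower (5.7%) at an unadjusted p under 0.05, and 0 were called. In OXmiR400 against wild type, 3 of 14 electron transport genes outside the photosystems were higher (6.71% of all genes) and 0 lower (9.19%) at that level. The 3 were PGR5, PETE2 and ATPD, and the median of the 14 was 0.09. The 5 genes of antenna protein import and insertion had 0 at that level and a median of 0.09.

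In OXmiR400, 1 of 15 further assembly and repair genes was higher at an unadjusted p under 0.05 (6.67%, against 6.71% of all genes). None was lower, against 9.19% of all genes. The 1 higher was LPA2, a photosystem II assembly factor, at 31.4, 34.1 and 32.1 FPKM in OXmiR400, 30.4, 39.1 and 30.5 in OXrPPR1 and 23.0, 24.3 and 24.4 in wild type. Both lines were above wild type (log2 fold change 0.43 ± 0.11 SE in OXmiR400, adjusted p = 0.106 in limma). Of the light-harvesting-like and stress-induced relatives of the antenna proteins, not all of which are stress-induced, 7 of 8 were tested. In OXmiR400 against wild type 0 were called in limma. At an unadjusted p under 0.05, 1 was higher (6.71% of all genes) and 1 lower (9.19%). Without overlap 4 were higher (10.8% of all genes) and 1 lower (13.5%), with a median log2 fold change of 0.15. LIL3.1 and LIL3.2, which take part in chlorophyll synthesis, had 0.25 ± 0.11 and 0.26 ± 0.13 in OXmiR400 (SE, adjusted p = 0.282 and 0.35 in limma), and SEP1 and OHP1 had 0.25 ± 0.15 and 0.15 ± 0.12 (SE, adjusted p = 0.445 and 0.603 in limma), all 4 above wild type without overlap. SEP2 (AT2G21970) measured 27.6, 27.1 and 24.8 FPKM in OXmiR400 and 33.4, 33.5 and 35.6 in wild type (-0.36 ± 0.09 SE, adjusted p = 0.0995 in limma), below it without overlap. ELIP1, induced by strong light, lay at 0.414 to 1.57 FPKM in OXmiR400, 0.915 to 2.16 in OXrPPR1 and 1.47 to 1.81 in wild type, and ELIP2 was not tested, at 0 to 0.781 FPKM over the 9 libraries.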

How the data were processed

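Total RNA of 9 seedling samples, 3 per genotype, was made into libraries with a SMARTer mRNA kit, per the labels' protocols. The deposited values are FPKM made by the authors, a unit that no label or header names and that was inferred because values times exon length sum to nearly the same total in every library. The submitters' processing notes name only the builds GRCm38 and mm10, which are of mouse, whereas gene positions in the deposited tables are those of Arabidopsis: all 60 genes described had the same start and end in TAIR10.1. No source used here gives the aligner, counter, strand setting or handling of shared reads. The 3 deposited tables were identical and 1 was used.

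The depths were chosen to put the most low values on multiples of 0.25 of a read or fragment. At these depths 99.5% to 99.7% of the low values were such multiples (tolerance 0.0125) and 47% to 52.2% were whole (same tolerance). Whole reads were therefore not recovered at these depths, and no count model was used. The 19955 genes whose mean reached 1 FPKM in any genotype were transformed to log2(FPKM + 1), which understates changes of low genes. One linear model with genotype as its term took in the 9 libraries together (limma version 3.58.1 under R 4.3.3), with trended, robust empirical Bayes, Benjamini-Hochberg adjustment over all genes and a threshold of 0.05. The model was tested on simulated data.

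The genes and lists were chosen with earlier results of these data known. Named genes were mainly drawn from the 4 most abundant of each role. To these came, in each comparison, the 5 smallest p in each direction and the 5 largest and smallest fold changes. Also drawn on were the regulators GLK1 and GLK2, psaA, psbA, ELIP1, ELIP2, and of other lists those with the 3 smallest p. Not every gene so chosen is given, nor its value in each comparison. For other lists, genes are given mainly for OXmiR400 against wild type, and not for every list. Roles of 15 genes outside the lists were assigned after the table was seen. The alternatives tried changed the scaling (quantile or median), the filter (none or 5 FPKM), the pseudocount (0.1), the variance trend (left out), the fit (6 libraries, or replicate number as a block) and the table (without organelle genes, or without each library in turn), and, chosen after seeing the data, LHCB1 and LHCB2 copies summed.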

Additional observations from a re-analysis of the deposited data

How the results depend on the processing

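Over all alternatives, the number of genes called among the 59 stayed at 0 in each comparison, with 1 exception: with the replicate number as a block it was 1 in OXmiR400 against wild type, PSBP2 (log2 fold change 1.28, adjusted p = 0.0364 in limma). Whether the numbers pair the libraries is not settled by these data. Same-number deviations correlated at -0.246 to 0.133 and other-number deviations at -0.378 to 0.31. Of 18 best matches, each among 3 libraries, 9 had the same number. The block changed no other call among the photosystem and light-harvesting genes. The median log2 fold change kept its sign in every setting. Leaving out 1 library gave 0.14 to 0.24 in OXmiR400 against wild type, 0.04 to 0.21 in OXrPPR1 against wild type and 0.06 to 0.19 in OXmiR400 against OXrPPR1, the lowest of the last without OXrPPR1 replicate 3. Genes above 0 then numbered 49 to 55, 37 to 49 and 38 to 56.

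Over single genes, 1146 of 1189 alternative values kept their direction and side of the threshold. Signs turned for genes near 0. AT1G77090 in OXmiR400 against wild type was 0.004 with quantile normalization, and -0.15 to 0.12 leaving out 1 library, and PSAL was 0.011 with median centring, and -0.10 to 0.052. Leaving out 1 library also gave -1.18 to 0.48 for LHCB1.5 and -0.52 to 0.061 for LHCB4.3 in OXmiR400 against wild type, and -1.52 to 0.14 for LHCB1.5, -0.15 to 0.001 for HCF136 and -0.26 to 0.088 for LHCA5 in OXmiR400 against OXrPPR1. Quantile normalization gives the highest gene the same value in every library, which sets LHCB1.3 to 0. The number of all genes called in OXmiR400 against wild type, 114 here, was 66 with no filter, 216 with only the 6 libraries compared and 8 to 194 leaving out 1 library. Apart from libraries left out, psbF and psbL in OXrPPR1 lost their calls with no filter (adjusted p = 0.0523 and 0.0744) and with the replicate block (0.0682 for both), and psbL with no variance trend (0.0534), and the cause was not tested.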
